A study of Mus musculus with 11 samples.

Results

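Lungs of Foxa3 knockout mice were compared with those of littermate controls after ovalbumin (OVA), the egg protein used to provoke allergic airway inflammation. The comparison uses 6 of the 11 one-colour arrays of the series, 3 titled Foxa3-/-_OVA and 3 titled WT_OVA. The other arrays, 3 from wild-type and 2 from knockout lung after saline, served to ask whether a difference was there without allergen. The labels call the controls littermates. They give no strain, age, sex, sensitisation schedule or time of sampling, do not say which part of Foxa3 was removed or whether the removal was confined to any cell type, and do not say whether an array is 1 animal. P-values therefore measure the spread between these samples only. Across the genome 21876 genes were tested, of which 505 lie within 20 Mb of Foxa3 on chromosome 7 and 21370 elsewhere.

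Foxa3 belongs to the FOXA family of forkhead transcription factors, which bind closed chromatin and open it for other factors. Foxa1 and Foxa2 act in airway and alveolar epithelium, where Foxa2 restrains mucous differentiation, and Foxa3 is found in mucus-producing goblet cells of inflamed airways. Interferons, a family of secreted antiviral proteins, signal through their receptors and STAT factors to switch on a broad set of interferon-stimulated genes. The set includes the factors Irf7 and Irf9, which amplify the response, and effectors that bind or degrade viral RNA.

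Levels below are log2 intensities scaled so that the 75th percentile of each array is 0, and differences are knockout minus wild type on that log2 scale, with the standard error of the fit. A gene is called where limma's Benjamini-Hochberg adjusted p over all 21876 genes is under 0.05. The 11 arrays lie on 3 slides, and each slide holds 1 wild-type and 1 knockout OVA array, so every difference could also be read within a slide. On the first principal component (46.3% of the variance) the saline arrays lay at -59.3 to -45.2 and the OVA arrays at 13.2 to 66.3. Wild-type OVA 1 (13.2) and knockout OVA 2 (13.6) lay nearer the saline arrays than the other OVA arrays did (43.3 to 66.3). On the second (15.8%) the 4 arrays of slide 1 stood apart (33.8 to 41.9, against -29.2 to -16.3 for the others). On the third (10.4%) wild-type OVA 1 stood apart, at -66.9 against -8.46 to 21.0. The share of probes well above background was 71.1% to 78.9% per array, and uneven spots numbered 1 to 97, with the highest number on wild-type OVA 1. Values without slide 1 or without that array are given for some of the results only. Where they are missing, a result was not shown to hold, and without slide 1 only 1 gene was called.

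Knockout and wild-type lung differed at 46 genes after OVA, 0.210% of those tested, with 12 higher (0.0549%) and 34 lower (0.155%) in the knockout. Besides Foxa3 itself, 11 of the called genes lie within 20 Mb of it, and 34 lie elsewhere. In the neighbourhood 2.18% of genes were called, 6 higher and 5 lower. Elsewhere 0.159% were called, 6 higher and 28 lower. Of the 46, 37 differed by at least 2-fold, and in all 46 the knockout and wild-type arrays did not overlap. Over all genes 4.60% had every knockout array below every wild-type array and 3.71% the reverse, and the median difference was 0.01. An unadjusted p under 0.05 was found for 1093 genes. The number of calls is sensitive to single arrays: it was 32 without wild-type OVA 1, 17 and 29 without wild-type OVA 2 and 3, 18, 19 and 27 without knockout OVA 1, 2 and 3, and 22 without either knockout saline array. Elsewhere than in the neighbourhood the 34 calls became 13 and 22 without wild-type OVA 2 and 3, 12, 13 and 20 without knockout OVA 1, 2 and 3, 14 without either knockout saline array, and 21 without wild-type saline 2 or 3. Without all of slide 1, 1 gene was called.

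Foxa3 RNA was not detected above background in knockout lung. Its single probe (mm7 chromosome 7, 16696078 to 16696137) read -3.89, -4.00 and -3.89 on the 3 wild-type OVA arrays and -8.55, -9.07 and -7.62 on the 3 knockout OVA arrays. The probe was well above background on every wild-type array and on no knockout array, so the fitted difference of -4.49 ± 0.30 (adjusted p 0.000353) runs into background. Taken to the background limit, the knockout level of Foxa3 RNA was lower by at least 8.15-fold with allergen and at least 1.58-fold without. Wild-type saline lung itself read lower, at -6.08 to -5.87. Such a bound sets the wild-type mean against the lowest signal well above background on each knockout array, or the probe's own where that is higher. A probe outside the removed part would check nothing, and the labels do not place it. The difference within slides 1, 2 and 3 was -4.66, -3.73 and -5.07. After a different background correction (normexp) it was -1.02 and in the authors' value table -1.13, both still called, and without slide 1 it was -4.40 with adjusted p 0.267.

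The relatives of Foxa3 did not pass the test. Foxa2 read 3.30, 3.14 and 3.09 in wild-type and 3.03, 3.48 and 2.94 in knockout OVA lung, a difference of -0.03 ± 0.16. Foxa1 read -0.54, -1.26 and -1.02 against -0.78, -0.80 and -1.24. For both the groups overlap, and the adjusted p was 1. Of the 16 FOXA and airway transcription factors measured, 0 were called and 0 had an unadjusted p under 0.05. Spdef, a factor of goblet cell differentiation, was at 0.35 ± 0.21 (adjusted p 1).

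The genes elsewhere in the genome fell into a pair of patterns when set against the difference after saline, which comes from other arrays. The saline arrays do enter the estimate of spread behind the OVA calls. For 17 of the 34 the knockout difference after saline had the same sign and an unadjusted p under 0.05, the rate over all genes being 3.26%. The other 17 differed after saline by -0.27 to 0.20 only. All 17 of this second kind were lower in the knockout, and 11 of them are members of the list of interferon-stimulated effectors. The split was drawn after the values were seen, and is a description.

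**Figure D1:**
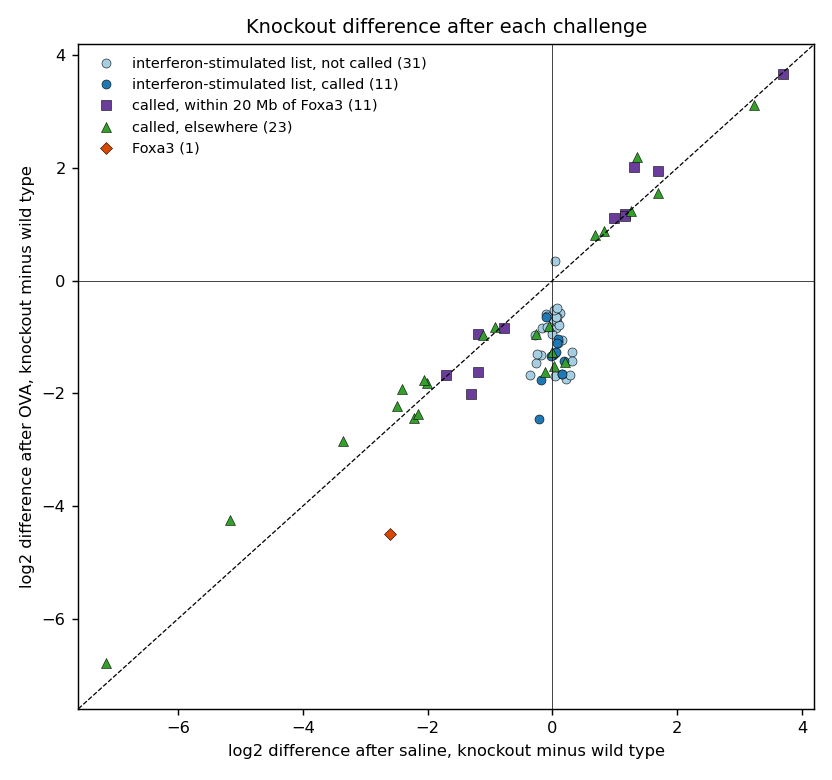
Knockout minus wild-type log2 difference after saline (x axis, 2 against 3 arrays) and after OVA (y axis, 3 against 3 arrays) for the 46 called genes and the 42 measured interferon-stimulated genes, with the dashed line marking equal differences. The 11 called neighbours of Foxa3 lie along the dashed line, while the 11 called interferon-stimulated genes lie below 0 after OVA and between -0.22 and 0.19 after saline.

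Interferon-stimulated genes were lower in knockout than in wild-type lung after OVA. Of the 42 measured members of the list of effectors, 11 fell and 0 rose, where 0.155% of all genes fell. Every knockout array lay below every wild-type array for 41 of the 42, and the same 41 had an unadjusted p under 0.05, where 2.96% of all genes had one with the knockout lower. The list's median difference was -1.09, against 0.01 over all genes, and it is the lowest median among the 45 lists examined. The lists were chosen with earlier results of these data known, so this rank and these counts are a description. Within slides 1, 2 and 3 the median was -1.40, -0.68 and -1.13. It was -1.20 without wild-type OVA 1 and -0.92 without slide 1, with 41 of 42 members lower each time (47.0% of all genes lay below 0). After saline the list's median difference was 0.04, with 0 members called and 0 with an unadjusted p under 0.05. Fewer responding cells and less RNA per cell cannot be told apart in whole lung.

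List levels, each the mean over the measured members, show where the arrays lie. On the 5 saline arrays the mean level of the list ran from 0.36 to 0.60. Wild type was at 0.58, 0.36 and 0.60 and knockout at 0.51 and 0.55. After OVA it was 2.19, 2.23 and 2.74 in wild type and 1.32, 1.12 and 1.44 in knockout. Knockout lung thus lay between the saline arrays and wild-type OVA lung, with no overlap on either side. With OVA, 40 of the 42 rose in wild type (10.9% of all genes did) with a median rise of 1.82, and 15 of 42 rose in knockout (6.45% of all genes) with a median rise of 0.74. These are calls in separate comparisons; the difference of the knockout effect between the challenges, tested gene by gene, had an unadjusted p under 0.05 for 38 of the 42, against 2.59% of all genes, and an adjusted p under 0.05 for 0 (0.00457% of all genes). For the 11 called members the lowest adjusted p of that difference was 0.829.

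**Figure D2:**
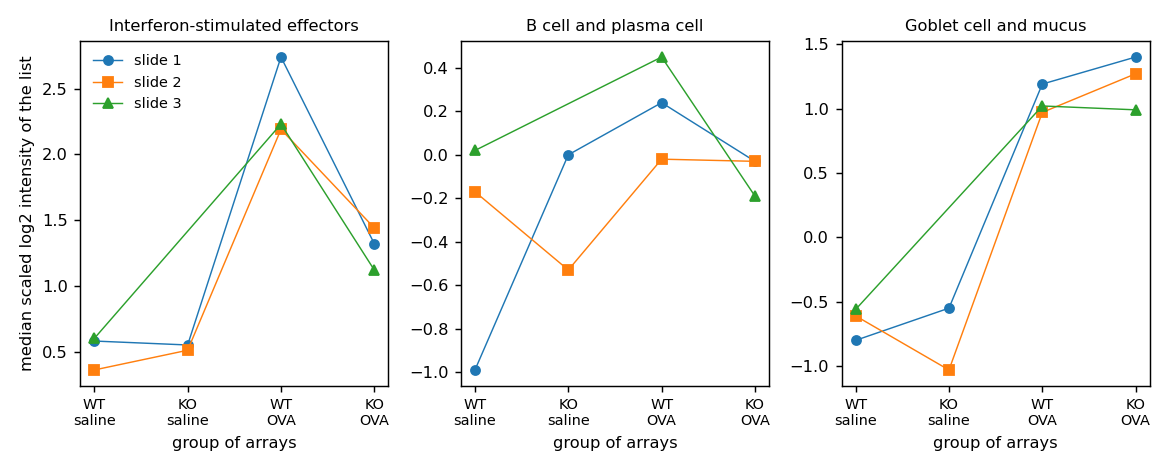
Mean scaled log2 intensity over the measured members of 3 gene lists on each array (y axis, whose printed label says median), by group (x axis). The arrays of 1 slide are joined by a line. For interferon-stimulated effectors the knockout OVA array lies below the wild-type OVA array on all 3 slides, whereas goblet cell genes lie at 0.97 to 1.40 on all 6 OVA arrays.

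Among the transcription factors of the response, Irf7, which drives type I interferon and many of its target genes, showed the lowest difference of the list. Its level was 2.94, 2.77 and 3.59 in wild-type OVA lung and 0.71, 0.22 and 1.03 in knockout OVA lung, while the saline arrays ran from -0.62 to -0.22. The groups after OVA are separate. After saline the knockout arrays also lay below the wild-type arrays, with a difference of only -0.22 (unadjusted p 0.45 in the same fit). The saline groups did not overlap for 21.5% of all genes. The difference was -2.45 ± 0.25 (5.45-fold lower, adjusted p 0.00735), with -2.88, -1.92 and -2.55 on the 3 slides. Irf7 lies on chromosome 7 but 121 Mb from Foxa3, and its call held with each of the 11 arrays left out in turn. It was lost with the OVA arrays alone (adjusted p 0.192) and without slide 1.

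Irf9, the DNA-binding subunit of the complex that type I interferon signalling assembles, fell by less. It read 2.39, 2.32 and 2.43 in wild type and 1.69, 1.72 and 1.77 in knockout, a difference of -0.65 ± 0.09 (adjusted p 0.0357). A second probe gave -0.66 (adjusted p 0.172 over probes). The call of Irf9 was lost in 17 of 24 alternative settings. Among them were slide as a block (adjusted p 0.0904) and the OVA arrays alone (adjusted p 0.323). The 7 other measured interferon regulatory factors were not called. Its partner Stat2 did not pass the test, at -0.82 ± 0.20 (adjusted p 0.288), with no overlap between groups.

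Several called members encode antiviral effectors. Ifit1, which holds viral RNA lacking a host cap, read 1.50, 1.61 and 2.35 in wild type and 0.34, 0.05 and 0.10 in knockout, with saline arrays at -0.75 to -0.41. Its difference was -1.66 ± 0.21 (3.16-fold lower, adjusted p 0.0221). Its relative Ifit3 read 4.52, 4.68 and 5.35 against 3.31, 3.40 and 3.56, a difference of -1.43 ± 0.21 (adjusted p 0.0445), and a second probe gave -1.49. A probe without a gene name, NAP007796-001, lies 0.107 kb from that of Ifit3 and was also called, at -1.44 ± 0.20. Oasl2, of the oligoadenylate synthetase-like family, was at -1.26 ± 0.17 (adjusted p 0.0312). The antiviral GTPase Mx1 missed the threshold at -1.67 ± 0.26 (adjusted p 0.0501), as did the ubiquitin-like modifier Isg15 at -1.69 ± 0.30 (adjusted p 0.0938).

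Usp18, the protease that removes Isg15 from proteins and dampens the interferon receptor, read 3.07, 3.13 and 3.56 in wild type and 1.96, 1.64 and 2.16 in knockout. Its difference was -1.33 ± 0.17 (2.52-fold lower, adjusted p 0.0201), and on the saline arrays it lay between 1.03 and 1.19. The remaining called members were Ifi44 (-1.76 ± 0.26), Ifi27l2a (-1.32 ± 0.16), Phf11d (-1.29 ± 0.17), Rtp4 (-1.11 ± 0.16) and Lgals3bp (-1.03 ± 0.14), with adjusted p from 0.0162 to 0.0391. Second probes of Ifi44 and Ifi27l2a gave -2.01 and -1.53. In none of the 11 called members did the 3 wild-type and 3 knockout OVA arrays overlap. The 1 member of the list above 0 was Ifi27, at 0.34 ± 0.14 (adjusted p 0.904).

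Calls of single members rested on the number of arrays. Of the 11 called, 4 remained without wild-type OVA 1, 1 without wild-type OVA 2, 3 without wild-type OVA 3, and 1, 1 and 4 without knockout OVA 1, 2 and 3. Without a saline array, which changes only the estimate of spread, 7, 6 and 4 remained for wild-type saline 1, 2 and 3 and 2 for either knockout saline array. With slide as a block 4 of the 11 remained, with the 6 OVA arrays alone 0 of 11, and in the authors' value table all 11, among 23 called. The direction held in all of these, with 41 of 42 members lower.

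**Figure D3:**
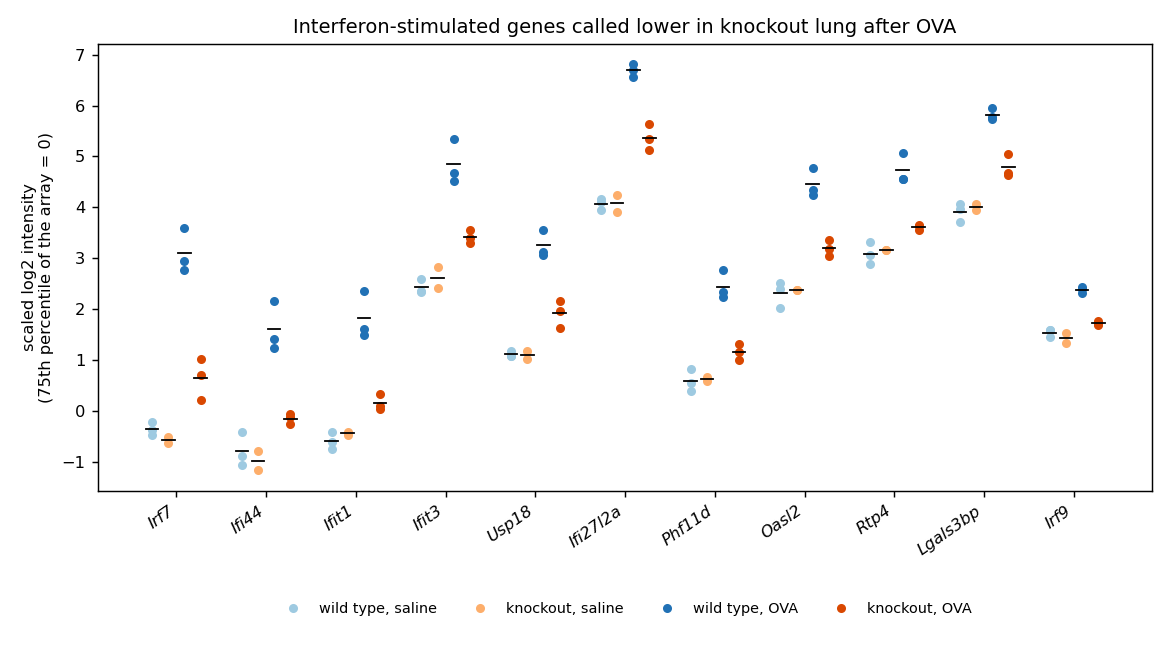
Scaled log2 intensity (y axis) of the 11 called interferon-stimulated genes on each of the 11 arrays, in 4 groups, with a bar at each group mean. Knockout OVA arrays lie below wild-type OVA arrays for every gene shown, and the saline groups lie close together.

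A further 6 called genes followed the same pattern, lower after OVA and within -0.27 to 0.20 after saline, without being on the list. Fbxo39, an F-box protein gene, was at -1.26 ± 0.17, Znfx1, an RNA helicase-like gene, at -0.80 ± 0.11, and Lgals9, which encodes the lectin galectin-9, at -0.94 ± 0.14. The probes LOC623121 (-1.63 ± 0.17) and LOC240921 (-1.51 ± 0.19) lie on mm7 chromosome 1 at 173562189 and 173443483, and neither of the nearest named genes was called. These are Ifi209, 54.7 kb from the first probe (-1.19, adjusted p 0.229), and Cadm3, 135 kb from the second (-0.30, adjusted p 1). Adjusted p ran from 0.00849 to 0.0402 over the 6. These genes were picked out after their values were seen.

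Promoters of the list's members were searched for the letters GAAA, repeated after 2 bases of any kind, on either strand (TTTC on the other), the core of the interferon-stimulated response element that the Irf9 complex and other IRF factors bind. RefSeq windows (GRCm38.p6), from 250 bases before to 50 after a gene's start, were at hand for 29 of the 42 measured members, and 14 of them (48.3%) held the motif. Of 13327 tested genes with a window, 3.72% held it, and of all 27025 genes with one, 3.99%. Among the 11 called members 8 had a window and 2 of these, Ifit1 and Ifit3, held it, while that of Irf7 did not. The forkhead letters TGTTTAC, searched on either strand, were in 2 of the 29 windows (6.90%), in 0 of those 8, and in 3.42% of tested genes. A match is a description of letters, and none was tested as a binding site. The 250 bases before the start are shown for both called genes with a match, for Isg15, which has 3, and for Irf7, with matches in capitals. They are chr19:34640639-34640888 (plus strand) for Ifit1, chr19:34583279-34583528 (plus strand) for Ifit3, chr4:156200819-156201068 (minus strand) for Isg15 and chr7:141266425-141266674 (minus strand) for Irf7.
Ifit1: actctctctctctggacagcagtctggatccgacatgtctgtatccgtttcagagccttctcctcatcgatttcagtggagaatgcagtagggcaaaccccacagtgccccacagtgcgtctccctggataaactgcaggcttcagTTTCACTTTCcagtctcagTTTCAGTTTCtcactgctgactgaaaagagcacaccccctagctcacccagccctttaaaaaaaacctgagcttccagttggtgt
Ifit3: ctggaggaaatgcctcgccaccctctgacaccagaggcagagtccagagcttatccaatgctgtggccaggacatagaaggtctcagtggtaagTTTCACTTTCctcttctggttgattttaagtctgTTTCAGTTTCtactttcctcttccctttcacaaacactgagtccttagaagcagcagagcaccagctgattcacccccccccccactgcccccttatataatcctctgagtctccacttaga
Isg15: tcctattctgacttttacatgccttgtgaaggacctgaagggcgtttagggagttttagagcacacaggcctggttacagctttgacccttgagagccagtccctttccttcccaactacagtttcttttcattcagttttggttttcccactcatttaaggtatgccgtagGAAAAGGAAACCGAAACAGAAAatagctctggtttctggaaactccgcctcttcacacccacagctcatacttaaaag
Irf7: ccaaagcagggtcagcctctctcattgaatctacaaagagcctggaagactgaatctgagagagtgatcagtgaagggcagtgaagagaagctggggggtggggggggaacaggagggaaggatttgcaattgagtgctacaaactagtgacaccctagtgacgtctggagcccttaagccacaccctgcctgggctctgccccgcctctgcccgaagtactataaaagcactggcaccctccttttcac
The Ifit1 matches lie from 104 to 76 bases before the start, those of Ifit3 from 156 to 113 and those of Isg15, which overlap one another, from 78 to 57.

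Other branches of the interferon system lay below 0 with no member called. Over all genes 47.0% lay below 0 and 4.60% showed no overlap with the knockout lower. An unadjusted p under 0.05 with the knockout lower was found for 2.96% of all genes. All 13 measured interferon-gamma inducible GTPases, which attack vacuoles of intracellular pathogens, were lower in the knockout, 11 without overlap and 10 with an unadjusted p under 0.05, with a median of -0.52 (slides -0.85, -0.41 and -0.37). Irgm1 was at -0.73 ± 0.18 (adjusted p 0.29), Ifi47 at -0.59 ± 0.15 (0.30) and Gbp7 at -0.70 ± 0.17 (0.319). All 16 nucleic acid sensors lay below 0, with a median of -0.36, and 10 showed no overlap, among them the RNA sensors Dhx58 (-1.29 ± 0.22, adjusted p 0.0756) and Ifih1 (-0.84 ± 0.16, adjusted p 0.123). Of these sensors some are also on the effector list. Of 16 MHC class I and antigen-processing genes 15 were lower, 6 without overlap, with a median of -0.35, but on slide 2 the median was 0.02. B2m, the light chain of MHC class I, was at -0.47 ± 0.10 (adjusted p 0.156).

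The ligands and receptors did not show such a shift. Of 13 measured, 0 were called and 1 had an unadjusted p under 0.05, with a median of -0.04. That gene was Tyk2, a kinase of the type I receptor, at -0.39 ± 0.10 (adjusted p 0.296). Ifnb1, which encodes interferon beta, passed the background limit on 2 wild-type and 1 knockout OVA array, at -8.15, -5.83 and -5.27 against -7.14, -9.06 and -6.66, so the groups overlap. Ifng, which encodes interferon gamma, read -0.87, -0.81 and -0.29 against -0.73, -0.98 and -0.74, also with overlap. Of the 6 genes of the CXCR3 axis, chemokines and receptor drawing T and natural killer cells, all 6 lay below 0 and 0 were called. Cxcl10 read 2.31, 2.59 and 3.40 against 1.98, 2.03 and 2.29 (-0.66 ± 0.29, adjusted p 0.995), with -0.01 on slide 2.

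**Figure D4:**
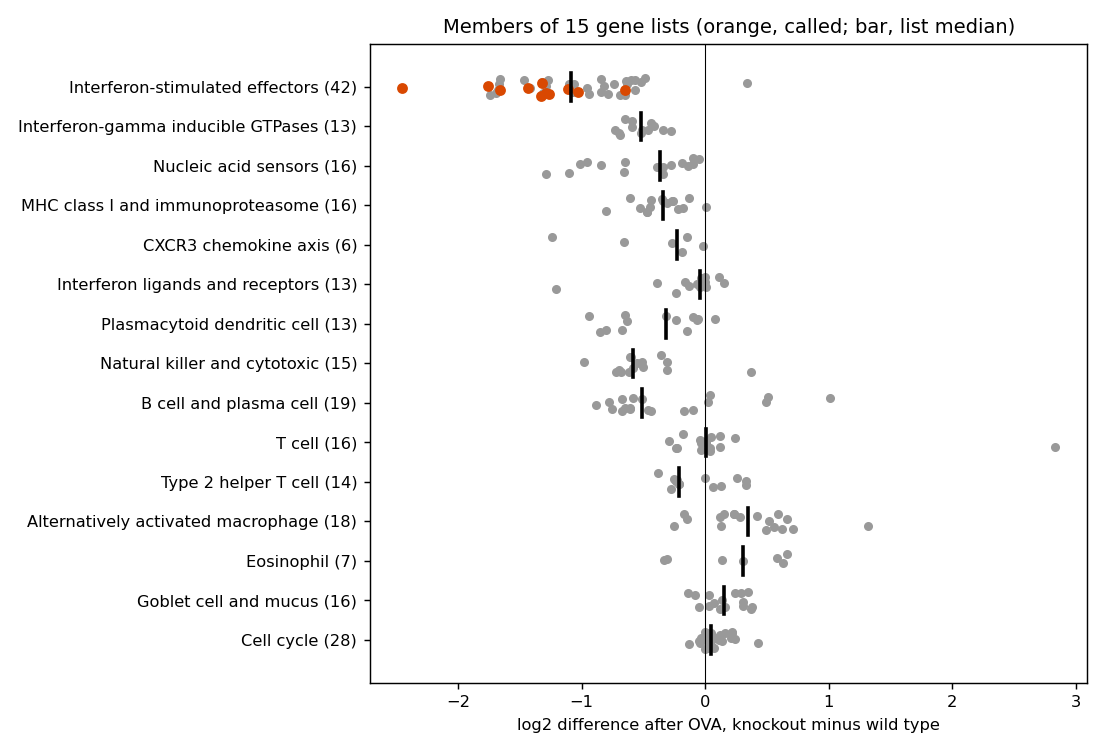
Knockout minus wild-type log2 difference after OVA (x axis) for each measured member of 15 gene lists (rows, with the number of measured members), called members in orange and the list median as a bar. Called members occur only among interferon-stimulated effectors in these 15 lists, and the medians of natural killer, B cell and interferon-gamma GTPase lists lie between -0.58 and -0.51.

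Markers of cells that make or answer interferon were examined beside these genes, with 0 called (0.210% of all genes were). Of 15 natural killer and cytotoxic genes 14 lay below 0 and 11 showed no overlap with the knockout lower (4.60% of all genes did), with a median of -0.58 (slides -0.76, -0.40 and -0.42) and 0.11 after saline. Prf1, which encodes the pore-forming perforin, read -0.95, -1.11 and -1.03 in wild type and -1.94, -1.59 and -1.66 in knockout OVA lung (-0.70 ± 0.17, adjusted p 0.288). The mean level of this list was -0.98 to -0.82 on wild-type and -1.76 to -1.38 on knockout OVA arrays. Klrk1 was at -0.68 ± 0.18 and Klra8 at -0.72 ± 0.22, both receptors of natural killer cells, with adjusted p 0.401 and 0.589.

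Plasmacytoid dendritic cells are known as strong producers of type I interferon. Of 13 of their markers 0 were called, 12 lay below 0 and 6 showed no overlap with the knockout lower (4.60% of all genes did), with a median of -0.32 (slides -0.59, -0.24 and -0.43). The lowest, Bst2 (-0.94 ± 0.19, adjusted p 0.149), is also on the list of interferon-stimulated effectors. Siglech, a defining surface receptor, read -4.69, -4.19 and -4.17 in wild type and -5.22, -5.22 and -5.15 in knockout OVA lung, a difference of -0.85 ± 0.15 (adjusted p 0.0895). On the saline arrays it read -4.30, -4.56 and -4.56 in wild type and -5.00 and -5.11 in knockout, so knockout lay lower there too. The mean level of the list was 0.08 to 0.31 on wild-type and -0.25 to -0.18 on knockout OVA arrays. The part of either cell type in the interferon result was not tested.

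B cell and plasma cell genes went in different directions. Of 19 measured, 0 were called and 14 lay below 0, with a median of -0.51. No overlap was seen for 9 with the knockout lower (4.60% of all genes) and for 2 with the knockout higher (3.71% of all genes). Only 1 gene had an unadjusted p under 0.05 in each direction. Blk, a kinase of the B cell receptor pathway, read -3.29, -3.18 and -3.28 against -3.91, -3.97 and -3.83 (-0.65 ± 0.29, adjusted p 0.993). Jchain, which joins secreted antibody into polymers, read -0.72, 0.34 and 0.40 against 0.94, 1.14 and 0.94 (1.01 ± 0.33, adjusted p 0.68). The list's level varied within groups on the saline arrays, from -0.99 to 0.02 in wild type alone.

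Mucus genes of the allergic response were not called. Of 16 measured goblet cell and mucus genes, 0 were called and 1 had an unadjusted p under 0.05, with a median of 0.15, and 2 lay above wild type without overlap (3.71% of all genes did). Muc5b, a gel-forming mucin, read 3.41, 2.89 and 3.58 in wild type and 3.69, 3.52 and 3.61 in knockout OVA lung (0.31 ± 0.18, adjusted p 1), above the saline arrays (1.94 to 2.43) in both genotypes. Galnt12, which adds the first sugar to mucins, was at 0.24 ± 0.10 and Creb3l4 at 0.29 ± 0.14, with adjusted p 0.991 and 1. Of 16 mucin O-glycosylation enzymes and 18 airway ion and fluid transporters 0 were called, where 0.210% of all genes were. Of the enzymes 2, St6galnac2 (0.23 ± 0.10) and Galnt12, had an unadjusted p under 0.05 and lay above wild type without overlap. Over all genes 2.03% had such a p with the knockout higher.

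Genes of type 2 inflammation also stayed short of the threshold, which 0.210% of all genes passed. Of 18 genes of alternatively activated macrophages 15 lay above 0, with a median of 0.35, but the slides read 0.45, 1.32 and -0.69. Chil4, a chitinase-like protein, read 5.09, 5.65 and 5.55 against 6.10, 5.70 and 6.34 (0.62 ± 0.20, adjusted p 0.63). Its relative Chil3 went the other way without overlap, at -0.25 ± 0.12, and Mgl2 was at 0.42 ± 0.22, neither of them called. Of 7 eosinophil genes 0 were called and 2 lay below 0, with a median of 0.31 and slides at 0.06, 1.35 and -0.49. Siglecf, their surface receptor, was at -0.33 ± 0.13 (adjusted p 0.865), the lipoxygenase gene Alox15 at 0.66 ± 0.45 and the ribonuclease gene Ear6 at 0.58 ± 0.44 (both adjusted p 1). The lists of type 2 helper T cells (14 measured, median -0.21), eotaxins and other chemokines (15, median 0.11) and the cell cycle (28, median 0.05) had 0 called members and 0 with an unadjusted p under 0.05. Their slides disagreed, in that order at -0.13, 0.19 and -0.59, at 0.19, 0.96 and -1.61, and at -0.02, 1.07 and -0.81. Among T cell genes (16, median 0.01) the surface protein Thy1 read -5.14 on wild-type OVA 1 and 3.30 to 3.54 on 4 of the other OVA arrays, with 3.02 on the fifth, so its difference of 2.83 ± 1.89 rests on 1 array.

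Resident cells of the lung showed no calls either. With 0.210% of all genes called, lists of this size would be likely to hold none, as would those of other tissues below. Lists of club cells (16 genes), ciliated cells (18), alveolar type II cells (16), alveolar type I cells (14), endothelium (16), smooth muscle (12) and fibroblasts and matrix (20) had medians from -0.09 to 0.06. The slides disagreed, with list medians from -0.56 to 0.06 on slide 2 and from -0.45 to 0.55 on slide 3. Among all members of these lists 1 had an unadjusted p under 0.05, Cyp2a5, a cytochrome of club cells, which read 1.98, 0.87 and 1.88 in wild type and 2.59, 3.53 and 2.42 in knockout OVA lung (1.27 ± 0.36, adjusted p 0.49). Markers of tissue that could be dissected along with lung, cardiac muscle, skeletal muscle, fat, liver and thymus, had 0 called members, with medians from -0.18 to 0.11. Here too the slides disagreed, from -0.89 to 0.22 on slide 2 and from -0.34 to 1.01 on slide 3. Complement genes had 4 of 17 with an unadjusted p under 0.05, all lower (2.96% of all genes had one with the knockout lower). The C1 inhibitor Serping1 read 4.07, 3.92 and 3.99 against 3.49, 3.52 and 3.55 (-0.47 ± 0.08, adjusted p 0.0895).

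Neighbours of Foxa3 on chromosome 7 differed in both directions, and in the same way after saline. Of 505 within 20 Mb 11 were called, and all 11 had the same sign and an unadjusted p under 0.05 after saline, 4 of them called there. Over all genes 3.26% had an unadjusted p under 0.05 after saline and 0.0960% were called. With 6 of the 11 higher and 5 lower, their differences ran from -2.01 to 3.67 after OVA and from -1.70 to 3.69 after saline. For none of the 11 did the difference between the challenges have an unadjusted p under 0.05. Only 2.59% of all genes had one, so a count of none among 11 tells little. Over all 505 neighbours the median difference after OVA was -0.03. An unadjusted p under 0.05 after OVA was found for 33.3% of genes within 2 Mb, 22.1% from 2 to 5 Mb, 17.8% from 5 to 10 Mb and 13.2% from 10 to 20 Mb. It was 3.72% from 20 to 40 Mb, 5.39% beyond and 4.65% on other chromosomes. After saline the shares within 2 Mb and from 2 to 5 Mb were 31.8% and 23.5%. The labels give no strain, so removal of Foxa3 and other differences of this stretch of chromosome between the genotypes cannot be told apart.

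**Figure D5:**
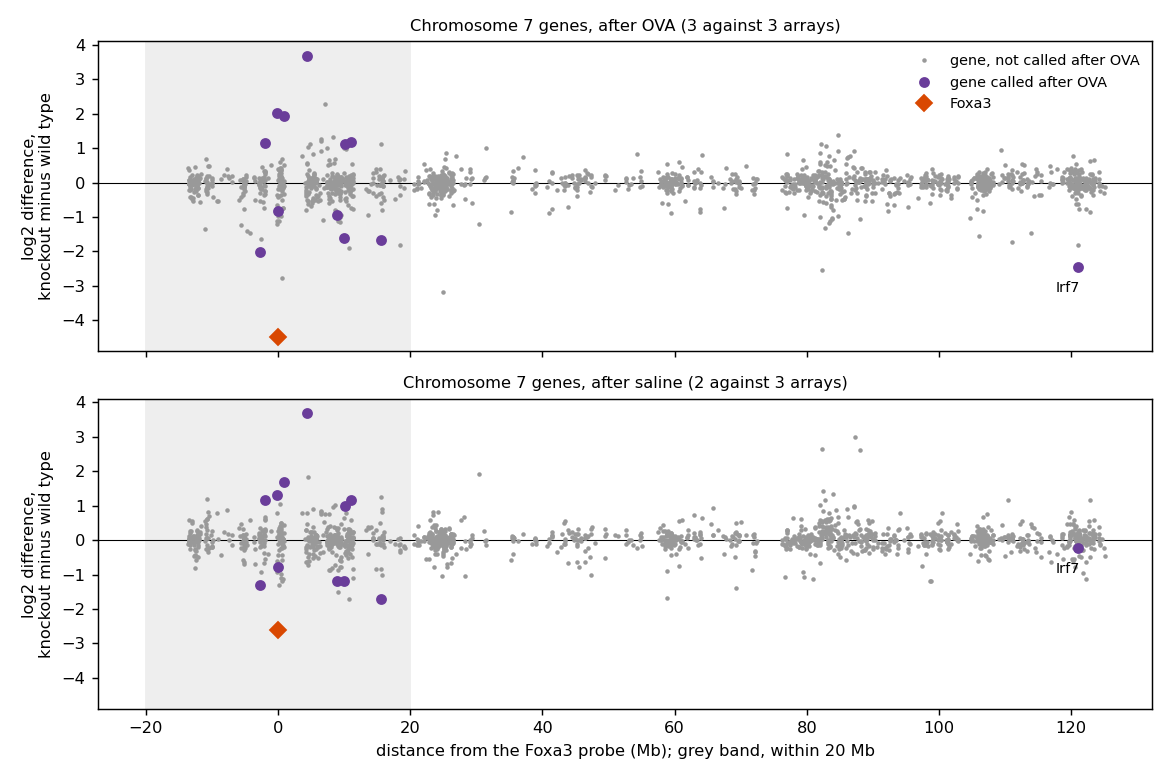
Knockout minus wild-type log2 difference (y axis) of chromosome 7 genes against distance from the Foxa3 probe in Mb (x axis), after OVA (upper panel) and after saline (lower panel). The called genes within 20 Mb keep their side of 0 in both panels, whereas Irf7, 121 Mb away, lies at -2.45 after OVA and -0.22 after saline.

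Among neighbours higher in the knockout, Tescl, a relative of the calcium-binding protein tescalcin 4.42 Mb away, read -4.18, -4.74 and -4.87 in wild type and -1.17, -0.84 and -0.78 in knockout OVA lung. Its difference was 3.67 ± 0.19 (12.7-fold, adjusted p 7.93e-05) and 3.69 after saline. Pglyrp1, a peptidoglycan-binding protein of neutrophil granules 0.12 Mb from Foxa3, read 0.15, 0.31 and 0.27 against 2.33, 1.97 and 2.45 (2.01 ± 0.22, adjusted p 0.00868), and 1.31 after saline. Igsf23, of the immunoglobulin superfamily, was at 1.94 ± 0.13 with a second probe at 2.31. The epithelial gene Dmkn was at 1.19 ± 0.13 and the zinc finger gene Zfp420 at 1.11 ± 0.16, though the second probe of Zfp420 gave -0.03. The transcript ENSMUST00000094807, at 1.15 ± 0.17, was well above background on 1 of 3 wild-type arrays.

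Among neighbours lower in the knockout, C5ar2, the second receptor for the complement fragment C5a, read -0.11, 0.42 and -0.37 in wild type and -1.70, -2.05 and -2.35 in knockout OVA lung. Its difference was -2.01 ± 0.25 (4.04-fold lower, adjusted p 0.0206), and -1.30 after saline. Irf2bp1, a corepressor of Irf2, lies 0.01 Mb from Foxa3 and was at -0.84 ± 0.12 (adjusted p 0.0423). The mitochondrial ribosomal gene Mrps12 was at -0.95 ± 0.09 and TC1417713 at -1.67 ± 0.21. Catsperg2, a subunit of a sperm calcium channel, was at -1.62 ± 0.20 on its brightest probe, but the other probes gave 0.39 and -0.08. The 11 calls became 6, 3 and 6 without wild-type OVA 1, 2 and 3, 5, 5 and 6 without knockout OVA 1, 2 and 3, and 7 without either knockout saline array.

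Elsewhere in the genome, 17 called genes had a difference of the same sign after saline with an unadjusted p under 0.05 there. Afm, which encodes the plasma glycoprotein afamin (mm7 chromosome 5, 90524738 to 90524797), read -1.86, -2.88 and -2.60 in wild-type and -8.89, -9.37 and -9.46 in knockout OVA lung. It was above background on no knockout array, which puts its level at least 22.7-fold lower after OVA and at least 28.9-fold lower after saline. The fitted difference was -6.79 ± 0.30 (adjusted p 3.39e-05), and -2.33 with normexp and -2.51 in the authors' value table.

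Chromosome 14 held 9 of the called genes, 1.18% of its 764 tested, all lower, of which 7 were also called after saline. The 2 others are the interferon-stimulated Phf11d and Irf9. The 7 lie at 2 places. Between 20348302 and 23594602 on mm7 chromosome 14 lie AK084429, Lrmda, a leucine-rich repeat gene, Plac9a and Tmem254a. Lrmda read 1.18, 1.18 and 1.21 in wild type and -1.44, -0.99 and -1.33 in knockout OVA lung (-2.44 ± 0.12, adjusted p 5.81e-05; -2.22 after saline). Plac9a read 5.11, 4.93 and 4.86 against 3.22, 3.20 and 3.01 (-1.82 ± 0.10, adjusted p 0.000116), and its neighbour Tmem254a was at -1.76 ± 0.12. Between 64228669 and 64267822 lie Entpd4, a nucleotidase of internal membranes (-0.96 ± 0.13), AK086749, whose probe starts 0.01 kb from that of Entpd4 and which was at least 2.79-fold lower, and AK038254, at least 14.2-fold lower. AK038254 read -3.06, -3.19 and -3.13 in wild type and -7.07, -7.33 and -7.71 in knockout OVA lung, and was the 1 gene still called without slide 1.

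The genes higher in the knockout after both challenges were few. Nnt, the mitochondrial transhydrogenase that regenerates NADPH (mm7 chromosome 13, 116544819), read 0.62, 0.54 and 0.41 in wild type and 1.72, 1.84 and 1.73 in knockout OVA lung. Its difference was 1.24 ± 0.10 (adjusted p 0.00102) and 1.26 after saline. Of its 3 other probes, 2 gave 1.09 and 1.20 and 1 gave 0.08. Pisd-ps3 was at 2.20 ± 0.23 with a second probe at 0.36, and the unplaced probe S74315 at 3.12 ± 0.25. Camk2b, a calcium-dependent kinase, was at 1.55 ± 0.21, the peptide transporter Slc15a2 at 0.88 ± 0.12 and Rab4a, a GTPase of endosome recycling, at 0.81 ± 0.10. The second probe of Slc15a2 gave 0.54 with an unadjusted p of 0.27. Ttc3, a ubiquitin ligase, was lower after both challenges, at -0.82 ± 0.09 after OVA and -0.92 after saline, as were LOC674214 and 4933409K07Rik, which are unplaced in mm7. As with the neighbours, these differences cannot be told apart from others between the genotypes.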

How the data were processed

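Total RNA of whole lung was labelled with Cy3 and hybridised to 60-mer Agilent arrays, per the labels' protocols. Per the file headers, each deposited scanner file gives a background-subtracted, detrended intensity per spot from Feature Extraction 9.5.1.1 (9.1 in the submitters' processing notes), with the flags used here as quality marks. The authors' deposited value table holds log2 values whose column medians are all 7.67 and whose ranks follow the raw signal (rank correlation 0.9992 to 0.9996). Its scale and direction were read from that comparison, and the method behind it is not given in the sources used here.

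Intensities were taken as log2 and centred on the 75th percentile of each array. A probe entered if it was above background on 2 or more of the 11 arrays (32948 of 41174 did), and the brightest stood for each of 21876 genes. Of these, 124 lack a value on some array, and 5803 carry a clone or accession name. Names came from RefSeq (GRCm38.p6): 22944 probes matched by accession, 6664 by current symbol and 3108 by synonym, 43 matched several genes and 8415 kept the name in the file. Coordinates are mm7, as in the files. One limma model (3.58.1, R 4.3.3) gave each of the 4 groups a mean, over all 11 arrays, with moderated variance (prior degrees of freedom 1.95, residual 7), two-sided tests and Benjamini-Hochberg adjustment. Contrasts were knockout against wild type after OVA and after saline, the difference of these, and OVA against saline in each genotype.

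The genes and 45 lists described were chosen with earlier results of these data known, as was the 20 Mb window. Named genes are the FOXA members, up to 12 of the largest called rises and falls with a usable symbol and no overlap, called neighbours, and per list up to 6 called members or the 3 of smallest p. Others named, chosen after their values were seen, are the remaining called genes, Mx1, Isg15, Ifi27, Ifng, Ifnb1 and Stat2. The fit was tested on simulated data for this comparison (21752 genes): it recovered 20.9% of changes of 1.5-fold, 46.3% at 2-fold and 80.3% at 4-fold. It also called 8 unchanged genes. The simulated noise was independent for each gene and array, without slide effects, an outlying array or a background limit. These rates may therefore not hold for the real arrays. With 3 arrays per group, their number limits precision. Alternatives were a normexp background (offset 50), scaling by quantiles or the median, stricter and no filters, probe means, the OVA arrays alone, slide and replicate blocks, a trended robust prior, array weights, the authors' table, other windows, and arrays or slide 1 left out.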

Additional observations from a re-analysis of the deposited data

Results flagged for a closer look

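The difference of the knockout effect between the challenges passed the test for 1 of 21876 genes (0.00457%), the unnamed probe A_51_P378501. The knockout effect after OVA minus that after saline was -3.58 ± 0.33 (adjusted p 0.039). The probe was well above background on both knockout saline arrays, at -5.50 and -5.64, and on no other array, where it read -9.29 to -8.57, so the value comes from the saline arrays and runs into background. The call ended with slide as a block, with quantile scaling and with 10 of the 11 arrays left out in turn, all but wild-type saline 2.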

How the results depend on the processing

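Against 46 calls in all, 34 outside and 11 inside the Foxa3 neighbourhood, the OVA arrays alone gave 11, 6 and 4, slide as a block 24, 18 and 5, and arrays without slide 1 gave 1, 1 and 0 (75 neighbours at an unadjusted p under 0.05). More genes were called with normexp and quantile scaling (88, 61 and 26), a trended robust prior (95, 70 and 24) and the authors' value table (95, 68 and 26), and 17 neighbours with the stricter filter. With single arrays left out the counts ran from 17 to 35, 12 to 25 and 3 to 10, Foxa3 from -4.88 to -4.16 and the interferon-stimulated median from -1.20 to -0.91. Foxa3 was at -4.40 and no longer called without slide 1. Over all alternatives that median ran from -1.27 (array weights) to -0.91, with 41 or 42 of 42 members lower. The difference between the challenges gave 0 calls with slide or replicate blocks, normexp, quantile scaling, either other filter, the trended prior, array weights, the authors' table and without slide 1, and 0 to 1 with single arrays left out, against 566 genes at an unadjusted p under 0.05. Replicate numbers did not pair the OVA arrays (correlations of deviations -0.09, -0.05 and -0.18), and the replicate block gave 48, 39 and 8 calls, 33 of them shared with the 46. No value reversed for the 30 named genes besides Foxa3. Detection was limited by signal over background, and the causes of these shifts were not tested.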
